A study of Homo sapiens with 3 samples.

Results

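The TGF-beta set described here holds 10 genes: the ligand genes TGFB1 and TGFB2, the activin and inhibin subunit genes INHBA and INHBE, the receptor genes TGFBR1, TGFBR2 and TGFBR3, the inhibitory SMAD gene SMAD7, and SNAI2 and VIM as markers of the mesenchymal state. They were taken by gene symbol in the platform's probe annotation, which gave all 10, each with 1 probe, of 17559 named genes in all. HepG2 cells, a human line established from a liver tumour, had been transfected with siRNA at 10 nM, and their RNA was taken after 72 h. Each of the 3 groups, negative control siRNA, villin siRNA and PTK7 siRNA, had 1 one-colour array. The labels name 2 villin siRNA oligonucleotides without saying which was on the array, and 1 against PTK7, so an effect of the target and an effect of the oligonucleotide cannot be told apart. With 1 array per group no difference has a replicate check, no test was run, and precision is limited by that number. The array of the PTK7 siRNA group is called the PTK7-labelled array. A PTK7 knockdown of 1.5-fold or more was not seen there in the normalised values.

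TGF-beta ligands are secreted in latent form and, once released, bind the type II receptor TGFBR2, which recruits and phosphorylates the type I receptor TGFBR1. TGFBR1 phosphorylates SMAD2 and SMAD3, which enter the nucleus with SMAD4 and induce target genes, among them SMAD7, which feeds back on the receptors. TGFBR3, also called betaglycan, is a co-receptor without kinase activity that presents ligand, TGFB2 in particular, and also binds inhibin. In epithelial cells, hepatocytes included, the pathway restrains growth and can start the epithelial to mesenchymal transition (EMT), in which transcription factors such as SNAI2 repress epithelial genes and the intermediate filament vimentin (VIM) is made.

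Promoters of 8 of the 10 genes were found in the RefSeq promoter table (build GRCh38.p14, from 250 bases before to 50 after a transcription start). Of these, the promoter of TGFBR3 is shown because TGFBR3 was the only gene of the set at least 1.5-fold apart between arrays in the main setting, and that of SMAD7 because SMAD7 is the direct target of SMADs in the set. Capitals mark CAGAC, a SMAD box with a flanking base, searched on both strands. It occurred 2 times in the SMAD7 window and 0 times in the TGFBR3 window, and 45.3% of 35116 promoters of this length held it. The palindrome GTCTAGAC, which does not contain CAGAC and was found in 0.202% of promoters, was in neither. SMAD7 has 2 further windows in the table, not shown, which held CAGAC 1 and 0 times. The one shown lies at the outermost start of the gene. TGFBR3 is at chr1:91886102-91886401, minus strand, and SMAD7 at chr18:48950916-48951215, minus strand, both given 5′ to 3′.
TGFBR3: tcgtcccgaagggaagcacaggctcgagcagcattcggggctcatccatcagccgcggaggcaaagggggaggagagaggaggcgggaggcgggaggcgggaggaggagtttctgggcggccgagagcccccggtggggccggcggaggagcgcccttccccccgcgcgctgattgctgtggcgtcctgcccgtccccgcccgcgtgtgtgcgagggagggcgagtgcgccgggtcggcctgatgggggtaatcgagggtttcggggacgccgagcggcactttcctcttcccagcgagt
SMAD7: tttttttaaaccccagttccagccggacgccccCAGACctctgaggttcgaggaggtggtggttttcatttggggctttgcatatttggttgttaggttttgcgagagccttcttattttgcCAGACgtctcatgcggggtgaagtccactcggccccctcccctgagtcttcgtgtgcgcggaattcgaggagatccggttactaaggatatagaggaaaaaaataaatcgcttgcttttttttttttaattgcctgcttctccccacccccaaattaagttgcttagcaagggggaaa

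Levels below are the authors' deposited intensities, whole numbers on a scale on which each array has a median of 25. Differences are log2 differences after background correction with an added offset and quantile normalisation, a procedure that shrinks those of dim spots. VIL1, the villin gene, lay at 924 with control siRNA, 129 with villin siRNA and 1084 on the third array. PTK7 lay at 14, 25 and 12. On the PTK7-labelled array its log2 difference against the control array was -0.05, and -0.21 with plain subtraction of the blank mean. A knockdown of 1.5-fold or more was thus not seen in the normalised values, at a level where differences are shrunk. Differences against the control array also followed the position of spots: block medians lay between -0.11 and 0.12 with villin siRNA, and between -0.12 and 0.15 on the PTK7-labelled array. Values after scaling each array to its surroundings on the slide (position scaling) are therefore given where they differ. For PTK7 on the PTK7-labelled array position scaling gave -0.18 (1.13-fold lower), where the median of 26 neighbouring spots was 0.14. As a measure of scatter within an array, repeated positive control spots corresponded to an SD of 0.183 for a log2 difference of 2 spots. Those spots were very bright, with medians of 16330 to 40340 scanner units, and were taken without the offset. For dim genes, whose differences the offset shrinks, a difference under 0.183 therefore does not show that a level was unchanged.

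Most of the set was dim. The 96 negative control spots of an array had a median of 1.42, 2.37 and 1.53 scanner units above the blank spots on the control, villin siRNA and PTK7-labelled arrays, and reached 11.4, 7.71 and 4.08 units. On the control array 6 of the 10 genes exceeded the highest negative control spot, namely TGFB1, INHBA, INHBE, TGFBR2, TGFBR3 and SMAD7. On each of the other arrays 8 did, all but TGFBR1 and SNAI2. In bulk RNA a change in the share of cells that express a gene and a change per cell cannot be told apart.

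**Figure D1:**
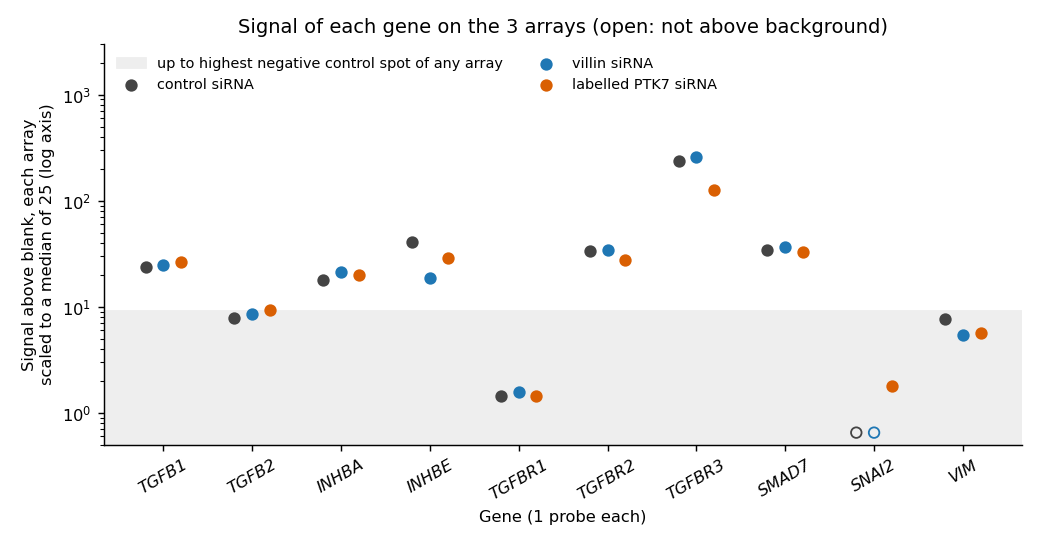
Signal of the 10 genes above the blank spots on the 3 arrays (vertical log axis, each array divided by the factor that sets its median to 25), 1 point per array, with the range up to the highest negative control spot of any array shaded. TGFBR3 and INHBE show the widest gaps between arrays, while TGFBR1, VIM and SNAI2 lie inside the shaded range on every array (open symbols mark spots not above background, drawn at an arbitrary height).

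Of the ligands, TGFB1, the most widely expressed TGF-beta isoform, had deposited intensities of 23 with control siRNA, 25 with villin siRNA and 26 on the PTK7-labelled array. These 3 values were close, with log2 differences against the control array of 0.01 and 0.07. TGFB2, an isoform with low affinity for TGFBR2 alone, lay at 8, 9 and 9, with log2 differences of 0.01 and 0.05. Its control spot was 9.85 scanner units above the blank mean, inside the range of the negative control spots of that array. Neither ligand differed by more than the scatter between repeated bright spots in the main setting, which shrinks differences at these levels. With plain subtraction of the blank mean the differences were 0.02 and 0.17 for TGFB1, and 0.04 and 0.29 for TGFB2.

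INHBA and INHBE encode the beta A and beta E subunits, which pair with themselves or with other subunits to form activins. INHBA lay at 18, 21 and 20 on the control, villin siRNA and PTK7-labelled arrays. Both of its log2 differences against the control array were 0.06. INHBE, whose transcript is largely confined to hepatocytes and is induced by endoplasmic reticulum stress, had deposited intensities of 41 with control siRNA, 18 with villin siRNA and 29 on the PTK7-labelled array. It was thus lowest on the villin siRNA array and intermediate on the other. The log2 difference on the villin siRNA array was -0.52 (1.44-fold lower), the 135th lowest of 15907 genes and short of the 1.5-fold mark. It exceeded the scatter between repeated bright spots. INHBE was far dimmer than those spots, at 51.6 and 29.6 scanner units on the control and villin siRNA arrays, so that scatter does not measure its noise. Position scaling gave -0.40, and an offset of 16 instead of 50 gave -0.83. With plain subtraction of the blank mean it was -1.24, and with the scanner's background column -0.04. On the PTK7-labelled array INHBE differed from the control array by -0.25, and by -0.05 after position scaling, where the median of 23 neighbouring spots was -0.09.

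Of the receptors, TGFBR1, the type I receptor kinase gene, lay 1.82, 2.52 and 1.91 scanner units above the blank mean on the control, villin siRNA and PTK7-labelled arrays, or 2.35, 3.32 and 2.61 SDs of the blank spots. This level lay inside the range of the negative control spots, and the log2 differences against the control array were 0.00 and 0.01. In the deposited whole numbers TGFBR1 was 1, 2 and 1, a step of 1 unit. TGFBR2, the type II receptor kinase gene, lay at 33, 34 and 27. Its log2 differences were -0.03 with villin siRNA and -0.13 on the PTK7-labelled array. Both turned positive after position scaling, to 0.11 and 0.10, and neither difference exceeded the scatter between repeated bright spots under either setting. With plain subtraction of the blank mean they were -0.07 and -0.29.

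TGFBR3 had the widest difference of the set in the main setting. With the deposited values and with plain subtraction that of INHBE was wider, at -1.19 and -1.24 for villin siRNA against the control array. The deposited intensity of TGFBR3 was 235 with control siRNA, 258 with villin siRNA and 126 on the PTK7-labelled array. The PTK7-labelled array was thus the low one, and the others were close. Above the blank mean the spot had 297, 414 and 168 scanner units, in the same order. On the PTK7-labelled array the co-receptor transcript was 1.67-fold lower than on the control array (log2 difference -0.74), the 9th lowest of 15775 genes. The villin siRNA array differed from the control array by 0.10. The villin siRNA array was 1.79-fold higher than the PTK7-labelled array (0.84), the 21st highest of 15947 genes. Both ranks belong to the main setting, which shrinks differences of dimmer spots. In that setting 34 genes were at least 1.5-fold lower on the PTK7-labelled array than on the control array, and 895 with plain subtraction.

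The TGFBR3 spot lay in block 5 of the slide, where the median log2 difference of 38 neighbouring spots between the PTK7-labelled array and the control array was -0.20. After position scaling the difference against the control array was -0.43 (1.34-fold lower), no longer past 1.5-fold, and between the 2 siRNA arrays it was 0.63 (1.54-fold). With the background column the array that stood apart changed: the log2 difference was 0.06 for the PTK7-labelled array against the control array and 1.15 for the villin siRNA array. The difference between the 2 siRNA arrays kept its sign and stayed past 1.5-fold in 11 of 11 alternatives, from 0.63 to 1.10, the highest with the background column. Against the control array the lower value stayed past 1.5-fold in 9 of 11. The alternatives include other filters on dim spots and the mean of probes, which could not move a gene with 1 bright probe.

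**Figure D2:**
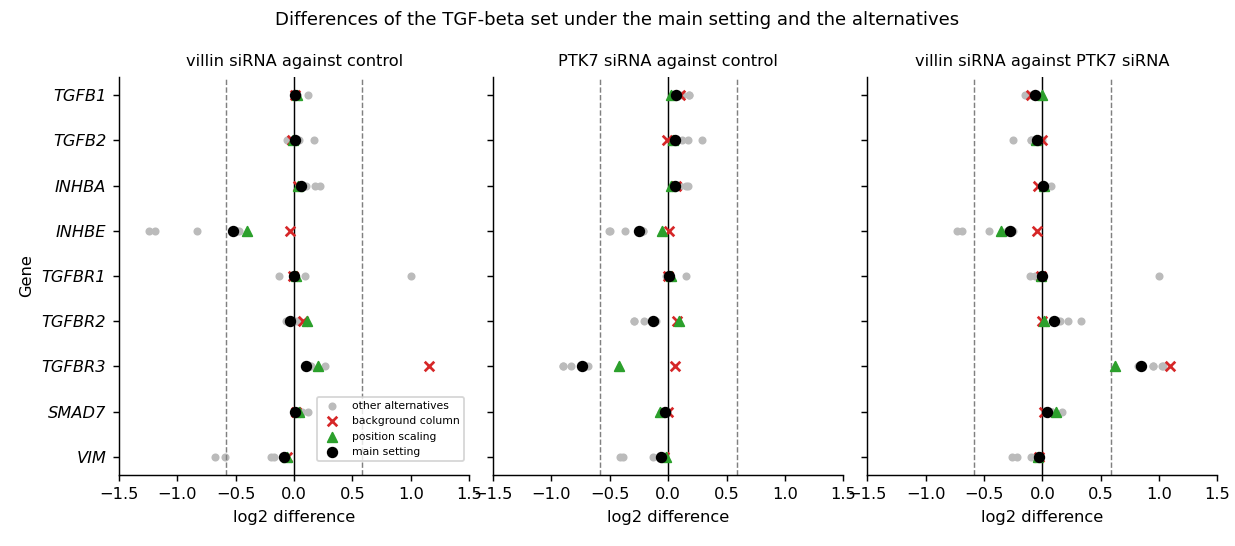
Log2 differences of the 9 genes detected on every array in the 3 comparisons (horizontal axis, one panel per comparison), with 1 point for each processing setting and dashed lines at 1.5-fold. TGFBR3 lies past the line in every setting between the villin siRNA array and the PTK7-labelled array, and INHBE is low on the villin siRNA array except with the background column, where it is near 0.

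SMAD7, which recruits ubiquitin ligases to the activated type I receptor, lay at 34 with control siRNA, 37 with villin siRNA and 33 on the PTK7-labelled array. These values were close, with log2 differences of 0.01 and -0.03 against the control array. SNAI2, the EMT transcription factor also called Slug, was not above background on the control or the villin siRNA array and had a deposited intensity of 2 on the PTK7-labelled array. That spot was 2.41 scanner units above the blank mean, below the highest negative control spot there, so no fold is given. VIM lay at 8 with control siRNA, 5 with villin siRNA and 6 on the PTK7-labelled array, with log2 differences of -0.09 and -0.06. The VIM spot was 9.72 scanner units above the blank mean on the control array, within the range of the negative control spots, and 8.67 and 7.58 on the other arrays, above it. With plain subtraction the VIM difference on the villin siRNA array was -0.60, which rests on those few scanner units.

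Counted together, 9 genes of the set were detected on both arrays in each comparison, all but SNAI2. On the villin siRNA array against the control array 0 were at least 1.5-fold higher, where 1.59% of 15907 genes were, and 0 at least 1.5-fold lower, where 0.522% were. On the PTK7-labelled array 0 were higher, where 0.811% of 15775 genes were, and 1, TGFBR3, was lower, where 0.216% were. Between the siRNA arrays 1, again TGFBR3, was higher on the villin siRNA array, where 0.489% of 15947 genes were, and 0 were lower, where 0.169% were. The median log2 difference of the 9 genes was 0.01, -0.03 and 0.00 in the 3 comparisons, beside -0.01, -0.01 and 0.00 over all genes. The comparisons with the control array share that array.

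**Figure D3:**
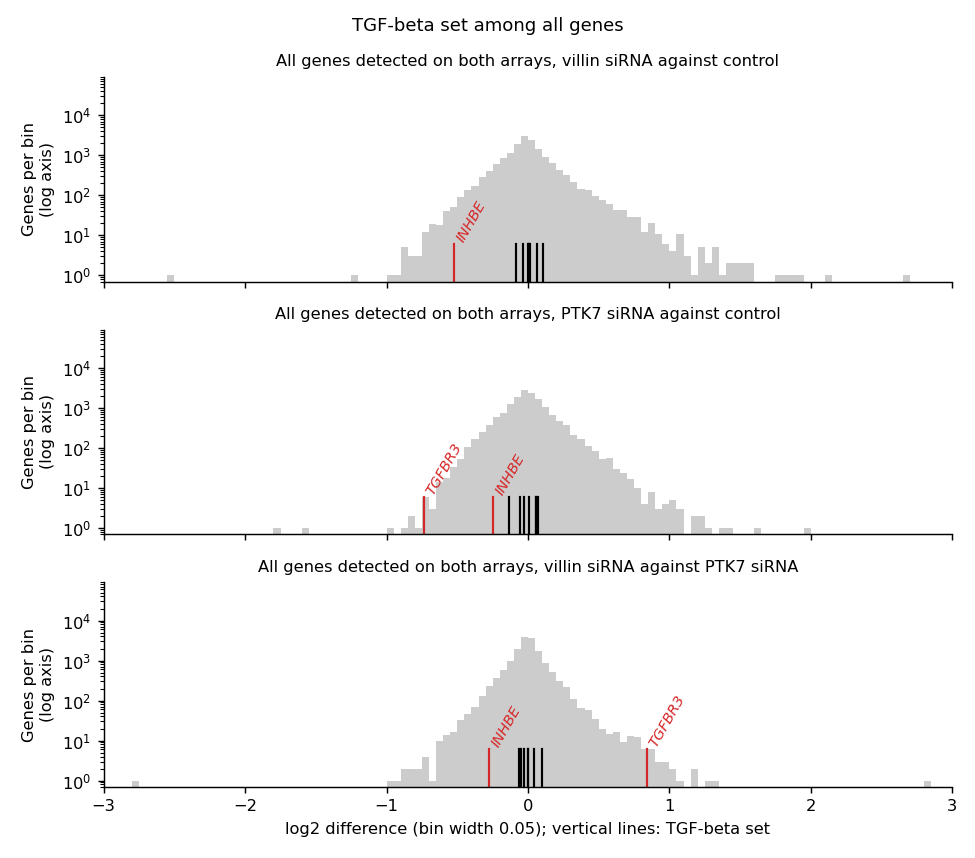
Number of genes (vertical log axis) by log2 difference (horizontal axis, bins of 0.05) in the 3 comparisons, with a vertical line for each of the 9 detected genes of the TGF-beta set and names for those beyond 0.2 in size. TGFBR3 lies in the lower tail for the PTK7-labelled array and INHBE in the lower tail for the villin siRNA array, and the other lines lie near 0.

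Other genes of the pathway were examined in lists by role. Of all genes 1.59% were at least 1.5-fold higher and 0.522% lower with villin siRNA, and 0.811% and 0.216% on the PTK7-labelled array. At such shares a count of 0 is likely for lists this short. Many of their genes were also dim, and the offset shrinks differences of dim spots. Of 11 other ligand and subunit genes of the superfamily, such as TGFB3, INHBB and the BMPs, 10 were detected on both arrays in each comparison with the control array, and 0 were at least 1.5-fold apart in either. Their median log2 difference was 0.02 with villin siRNA and -0.00 on the PTK7-labelled array. Of 11 other receptor genes, activin and BMP receptors, endoglin (ENG) and the pseudoreceptor BAMBI included, 10 and 11 could be compared, with medians of -0.02 and -0.04 and 0 past 1.5-fold. For 12 genes of ligand release and antagonists, such as the latent TGF-beta binding proteins and follistatin, 0 were past 1.5-fold and medians were 0.07 and 0.03. Their log2 differences ran from -0.48 to 0.37 with villin siRNA and from -0.35 to 0.23 on the PTK7-labelled array. Among 14 SMADs and SMAD regulators medians were -0.03 and 0.01, and 0 were past 1.5-fold.

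Of 21 target genes of the pathway measured, 2 were at least 1.5-fold higher with villin siRNA, where 1.59% of all genes were. On the PTK7-labelled array 1 was, where 0.811% of all genes were. In both comparisons 0 were lower, where 0.522% and 0.216% of all genes were, and the medians were -0.03. CDKN2B, the cyclin-dependent kinase inhibitor p15, had deposited intensities of 73 with control siRNA, 228 with villin siRNA and 93 on the PTK7-labelled array. It was high on the villin siRNA array alone, 2.34-fold above the control array (log2 difference 1.23, and 1.13 after position scaling). CCN2, a matricellular protein gene that YAP also induces, lay at 216, 509 and 628. Its log2 differences of 1.09 and 1.40 became 0.27 and 0.46 after position scaling. Of 20 EMT transcription factor and mesenchymal marker genes compared, 0 were past 1.5-fold on either siRNA array, with medians of 0.00 and -0.07. Their log2 differences ran from -0.23 to 0.57 with villin siRNA and from -0.31 to 0.48 on the PTK7-labelled array. CDH2, a cadherin gene named after its values were seen, was highest in both. It lay at 17, 46 and 39, and its differences became 0.29 and 0.17 after position scaling. After position scaling 1 gene of the EMT list, TAGLN, was past 1.5-fold on the PTK7-labelled array. TAGLN is an actin-binding protein gene of smooth muscle that is also in the target list. Its log2 difference there was 0.64, and 0.40 in the main setting, and it was named after its values were seen.

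**Figure D4:**
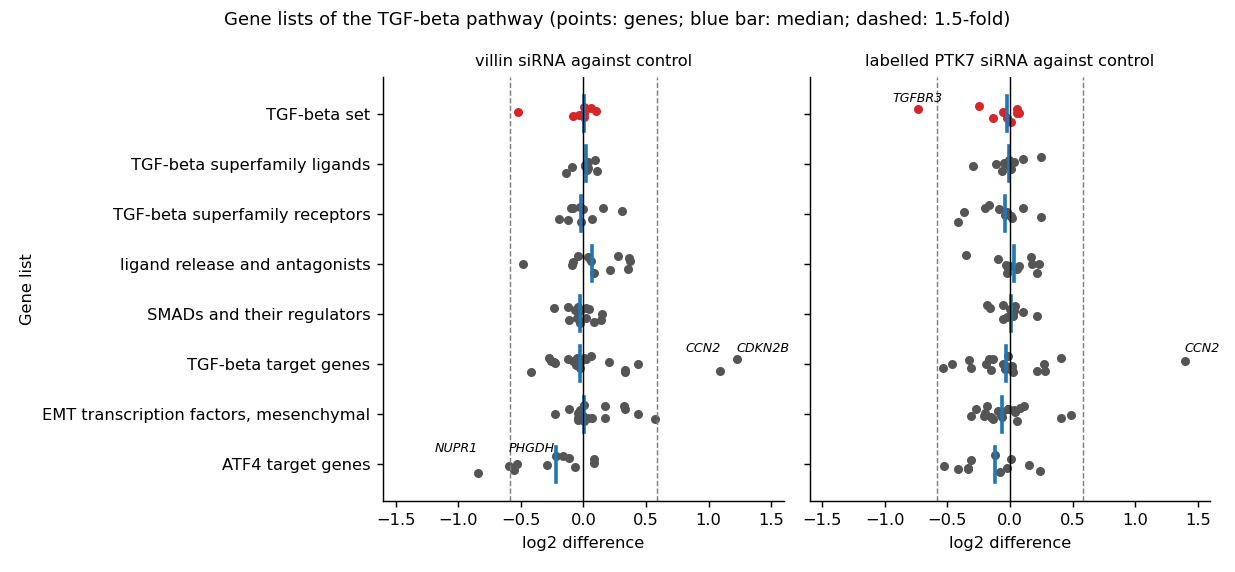
Log2 differences against the control array (horizontal axis) of the TGF-beta set and of 7 lists of related genes (vertical axis), for the villin siRNA array on the left and the PTK7-labelled array on the right, with a point per gene. CDKN2B and CCN2 are the target genes past the dashed 1.5-fold lines on the left, and medians (blue bars) lie between -0.07 and 0.07 for all lists except the ATF4 targets, at -0.22 and -0.12.

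INHBE is a target of the stress-response transcription factor ATF4, and other targets of ATF4 were set beside it. On the villin siRNA array 2 of 11 were at least 1.5-fold lower and 0 higher, with a median log2 difference of -0.22, where 0.522% of all genes were at least 1.5-fold lower. After position scaling 1 of 11, NUPR1, was past 1.5-fold, and the median was -0.26. NUPR1, a stress-induced chromatin protein gene, lay at 243, 122 and 158 on the control, villin siRNA and PTK7-labelled arrays, an order shared with INHBE. PHGDH, the first enzyme of serine synthesis, lay at 2346, 1478 and 1802, a log2 difference with villin siRNA of -0.59 that became -0.53 after position scaling. On the PTK7-labelled array 0 of 11 were past 1.5-fold, and the median was -0.12. This list was known to be low on the villin siRNA array when it was chosen.

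By the pair of log2 differences against the control array, the genes nearest to TGFBR3 among 7847 genes above the median level were FRMD1, SLC7A1 and FBXO21, at distances of 0.02, 0.09 and 0.13. FRMD1, for example, lay at 0.11 with villin siRNA and at -0.72 on the PTK7-labelled array, against 0.10 and -0.74 for TGFBR3. Nearest to INHBE were CTDSP2, RXRA and SUDS3, at distances of 0.01, 0.02 and 0.02. For TGFBR2 they were KCMF1, OAS3 and OGFOD3, all at distances under 0.01. These likenesses rest on 3 arrays, and among 7847 genes a close neighbour is likely for any gene with small differences. Those of TGFBR2 lay within the scatter between repeated spots in the main setting and changed sign after position scaling, so its short distances say little.

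The cell type was checked against markers. All 8 hepatocyte markers were detected on every array, with summed deposited intensities of 50996, 36557 and 47628 on the control, villin siRNA and PTK7-labelled arrays, led by TF, ALB and AFP. Against the control array their median log2 difference was -0.21 with villin siRNA and 0.07 on the PTK7-labelled array, and 0 of 8 were past 1.5-fold. The markers did not move together on the villin siRNA array. ALB was at -0.56, TF at -0.43, FGB at -0.41 and AFP at -0.37. SERPINA1, APOB and APOA1 lay between -0.04 and 0.04, and TTR at 0.24. The sum, led by its brightest genes, was lowest on the array where INHBE was lowest, and its part in that result was not tested. Of 11 fibroblast and stellate cell markers 7 were detected on the control array and 8 on each of the others, with summed deposited intensities of 705, 811 and 682. ACTA2, DCN and DES were highest among them on the control array, ACTA2 at 530, 595 and 472. COL1A2 and LRAT were not above background on any array, and COL1A1 lay at 2 on each. PDGFRB, named after its values were seen, lay at 22 on the control array and at 60 on both siRNA arrays, and was not past 1.5-fold after position scaling. Of 5 endothelial markers 3 to 4 were detected, with sums of 47 to 55, and of 7 immune markers 4 to 5, with sums of 539 to 839, led by CD68, LYZ and CD14. LYZ, the lysozyme gene, lay at 226, 455 and 383, with log2 differences against the control array of 0.89 and 0.67, and of 0.93 and 0.73 after position scaling, past 1.5-fold on both siRNA arrays in either setting. The samples were HepG2 cells, a cell line, so these sums are not read as shares of other cell types. The fibroblast list was lowest in sum on the PTK7-labelled array, where TGFBR3 was low, and ACTA2 made up most of that sum. The median log2 difference of these markers there was -0.01, and PDGFRB was higher than on the control array. A relation of these genes to the TGFBR3 result was not tested.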

How the data were processed

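Arrays of 1 colour (Cy5) were analysed, 1 per group. The scanner intensity is the spot median at 635 nm, not normalised, per the file headers. The authors' deposited intensities equal that median minus the mean of the blank spots, divided by a factor per array (1.26, 1.60 and 1.34); recomputed values lay within 0.5 units. The steps before scanning are per the labels' protocols, and the software is not given in the sources used here. Background was the mean of 2680 blank spots without the outermost 5% at each end (SDs 0.777, 0.759 and 0.732 units). Spots were corrected by normexp (offset 50) and quantile normalised with limma 3.58.1 (R 4.3.3; Python 3.11.15 for the rest). A spot was detected if over 2 SDs above the blank mean and not flagged by the scanner: 22090, 22525 and 22064 of 24460 probes on the 3 arrays. Genes with several probes were represented by the brightest. Of the annotation's symbols 2899 were updated through RefSeq synonyms (GRCh38.p14). Position scaling divided each array by its median deviation in a window of 11 columns by 5 rows. The steps were run on simulated arrays with known changes, all larger than 1.5-fold, in brighter spots and without position effects. Changes in dim spots, changes near 1.5-fold and position effects were thus not covered. The members and lists were chosen with earlier results of these data known. Named genes were the 10 genes with VIL1 and PTK7, up to 4 genes per list at least 1.5-fold apart, the 3 brightest cell type markers, and the 3 nearest in pattern. A few others were named after their values were seen. The counts of members were recomputed under 12 alternatives, their log2 differences under 11 (TGFBR1 under 10), and lists with position scaling only.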

Additional observations from a re-analysis of the deposited data

How the results depend on the processing

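No paired analysis was possible because each group has 1 array, and the replicate numbers only name it. Of the 10 genes, the number at least 1.5-fold lower on the PTK7-labelled array than on the control array was 1 (TGFBR3), and 0 with position scaling, with the background column or at 2-fold. With the background column the TGFBR3 difference turned, from -0.74 to 0.056. There VIL1 between the siRNA arrays also went from -2.79 to -0.08. Against the control array VIL1 went from -2.50 to -1.09 with villin siRNA, still past 1.5-fold, and from 0.28 to -1.01 on the PTK7-labelled array. VIL1 is the one knockdown of 1.5-fold or more that the arrays show. On the villin siRNA array against the control array the number lower was 0, and 2 (INHBE and VIM) with plain subtraction or the deposited values and 1 (INHBE) with the offset of 16; the number higher was 0, and 1 with the background column (TGFBR3) or the deposited values (TGFBR1, by rounding of 1 against 2). Between the siRNA arrays the number higher on the villin siRNA array was 1, 2 with the deposited values (TGFBR1 and TGFBR3) and 0 at 2-fold, and the number lower was 0, and 1 (INHBE) with plain subtraction or the deposited values. The counts equalled those of the main setting with median scaling, cyclic loess, no background correction, no filter, a filter at 5 SDs and the mean of probes. The mean of probes cannot change genes with 1 probe each, and the filters cannot change the value of a detected gene. Of all genes, 336, 162 and 105 were at least 1.5-fold apart in the 3 comparisons, 189, 27 and 85 with position scaling, 564, 356 and 176 with the offset of 16, 2120, 2011 and 966 with plain subtraction, 2508, 2472 and 1490 with the deposited values, and 48, 19 and 9 at 2-fold. Apart from the rounding and the stricter threshold, the cause of these changes was not tested. Signal over background limits TGFBR1, SNAI2, VIM and TGFB2, which lay within the range of negative control spots on the control array.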
